A study of Homo sapiens with 18 samples.

Results

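The genes described here belong to the antioxidant programme of NRF2 and were chosen by symbol in the table of FPKM values per gene (fragment counts scaled to transcript length and to library size). They are NFE2L2, which encodes NRF2, its inhibitor KEAP1, and the target genes NQO1, GCLC, GCLM, TXNRD1, HMOX1, SRXN1 and ME1, and make up 9 of 62830 genes in the table. The RNA came from MDA-MB-231, a long-established human cell line of triple-negative breast cancer, sequenced in 18 libraries that form 6 groups of 3. The groups are wild-type cells without treatment, wild-type cells given olaparib at 2 µM for 24 h, wild-type cells transfected with siRNA against PARP1 (siPARP1, labelled 100 pM) for 48 h, and cells with a TRIM27 knockout in the same 3 states. TRIM27 is a tripartite motif (TRIM) protein that attaches ubiquitin to its substrates, and olaparib blocks the catalytic activity of PARP1 and PARP2, enzymes of DNA repair. The series concerns TRIM27, PARP1 and PAX6 in invasion and metastasis. All libraries carry the same batch label, and the sources used here do not say whether the knockout cells are 1 clone or a pool. The protocols in the labels describe DMSO and non-targeting siRNA as controls, but no library is labelled with either. The libraries called untreated here are those with no treatment label, and whether they had received one of these controls is unknown, for every treatment difference below. The effects of the drug and of its vehicle, and of PARP1 loss and of transfection, therefore cannot be told apart.

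The label checks bear on every result below. TRIM27 RNA in untreated knockout cells was 43.1% of the wild-type level, at 0.623 against 1.45 FPKM (log2 difference -0.59, limma adjusted p = 0.000538). Untreated libraries held 1.18 to 1.65 FPKM in wild-type and 0.547 to 0.665 in knockout cells, so TRIM27 was low in both. The filter on low values, described below, kept TRIM27 only because of its wild-type libraries, and so favoured this difference. With this much RNA left, the p-value does not establish the knockout labels. PARP1 RNA under siPARP1 was 19.1% of the untreated level in wild-type cells and 16.8% in knockout cells. PARP1 RNA also fell with olaparib, to 69.1% in wild-type and 72.6% in knockout cells (limma adjusted p = 2.15e-05 and 7.99e-05). PARP2 RNA fell with both treatments in both genotypes. TRIM27 RNA rose with siPARP1 to 135% in wild-type cells, with overlapping libraries, and to 159% in knockout cells (limma adjusted p = 0.0333 and 0.0182). Of the epithelial markers, KRT8, KRT18 and KRT19 exceeded 1 FPKM in all 18 libraries, while EPCAM stayed between 0.0464 and 0.310 FPKM and CDH1 between 0 and 0.0969, so that 2 defining epithelial markers were nearly absent. The mesenchymal markers VIM, FN1 and ZEB1 exceeded 1 FPKM in all 18 libraries. Of the receptor markers, ESR1 was at most 0.266 FPKM and PGR at most 0.00458, while ERBB2 stood at 14.4 to 32.4 FPKM. PTPRC (leukocytes) and PECAM1 (endothelium) were at most 0.0476 and 0.0100 FPKM and were listed at 0 in 5 and 13 libraries. CD68, a lysosomal protein abundant in macrophages, was present in all libraries, and the 3 leukocyte and endothelial markers together summed to 10.1 to 10.9 FPKM in untreated wild-type cells, 5.32 to 6.07 under olaparib and 19.5 to 24.1 under siPARP1. Nearly all of this sum was CD68, with means of 10.5, 5.73 and 21.5 FPKM in these wild-type groups, so it follows CD68 and not PTPRC or PECAM1. In knockout cells this sum was 7.24 to 9.38, 4.04 to 4.77 and 9.57 to 10.3 FPKM in the same order, and its part in the results was not tested. Libraries summed to between 812699 and 910313 FPKM, and the gene expression of libraries of 1 group correlated at 0.9822 to 0.9882.

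NRF2 is a transcription factor that KEAP1, an adaptor of the CUL3 ubiquitin ligase, holds at a low level by marking it for degradation. When electrophiles or oxidants modify KEAP1, NRF2 accumulates, pairs with a small MAF protein and binds antioxidant response elements (AREs) at its target genes. Much of the control is thus on the NRF2 protein, and the RNA of NFE2L2 does not report it. The targets serve glutathione synthesis (GCLC, GCLM), the thioredoxin and peroxiredoxin system (TXNRD1, SRXN1), quinone reduction (NQO1), heme breakdown (HMOX1) and NADPH supply (ME1).

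The core letters of the ARE, TGACNNNGC, were searched on both strands of RefSeq promoter windows of 300 bases (250 before and 50 after an annotated gene start, GRCh38.p14). The 8 genes other than HMOX1 had 11 windows in all, and the core was present in 5 windows from 4 genes, against 4687 of 35116 windows (13.3%) over all genes. The 5 stretches before the starts that hold the core are shown, whatever the expression of their genes. These genes differed in how they moved: GCLM rose with both treatments, ME1 fell with both, and KEAP1 rose with siPARP1. TXNRD1 passed the test with both in knockout cells, but these calls were lost when single libraries were left out. Whether the cores have a part in these changes was not tested. Each is written 5′ to 3′ on the strand of the gene, with the core in capitals; a core on the other strand reads GCNNNGTCA, and positions count back from -1, the base before the start.
GCLM, chr1:93909431-93909504, minus strand, core at -34 on the other strand: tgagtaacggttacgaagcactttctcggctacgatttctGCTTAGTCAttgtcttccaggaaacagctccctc
ME1, chr6:83431140-83431228, minus strand, core at -137: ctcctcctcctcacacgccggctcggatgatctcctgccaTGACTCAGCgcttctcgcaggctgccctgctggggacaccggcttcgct
TXNRD1, first start, chr12:104215640-104215778, plus strand, cores at -99 and, on the other strand, at -8 with its last base past the start: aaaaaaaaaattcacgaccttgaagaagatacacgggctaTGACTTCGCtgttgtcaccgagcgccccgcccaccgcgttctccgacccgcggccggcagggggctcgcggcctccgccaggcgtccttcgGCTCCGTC
TXNRD1, second start, chr12:104286890-104286978, plus strand, core at -102 on the other strand: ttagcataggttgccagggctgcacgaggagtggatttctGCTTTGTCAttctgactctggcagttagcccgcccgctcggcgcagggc
KEAP1, second start, chr19:10502772-10502865, minus strand, cores at -54 and, on the other strand, at -31: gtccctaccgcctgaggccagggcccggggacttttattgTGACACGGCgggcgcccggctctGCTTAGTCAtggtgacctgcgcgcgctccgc
The core at -137 of ME1 also holds TGACTCA, the letters of the AP-1 motif, and the ME1 window has another core after the start. The windows of NFE2L2, GCLC, NQO1 and SRXN1 and the first KEAP1 window held no match, which says only that these letters are not within those 300 bases.

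In untreated wild-type cells the levels ran over a wide range. TXNRD1 was by far the highest at 407 ± 126 FPKM (SD, n = 3), above 98.5% of the 15764 genes that passed the filter of at least 1 FPKM in at least 3 libraries. SRXN1 at 27.3 ± 0.439 and HMOX1 at 22.3 ± 1.17 FPKM followed and did not overlap. NFE2L2 (11.2 ± 0.613), GCLM (11.1 ± 0.418) and KEAP1 (10.4 ± 1.39) overlapped, as did GCLC (8.19 ± 0.798) and ME1 (7.45 ± 0.094). NQO1 was lowest at 2.22 ± 0.377 FPKM, above 22.7% of the tested genes. All 9 genes passed the filter, 8 of them with at least 1 FPKM in all 18 libraries, while NQO1 passed only through wild-type libraries.

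**Figure D1:**
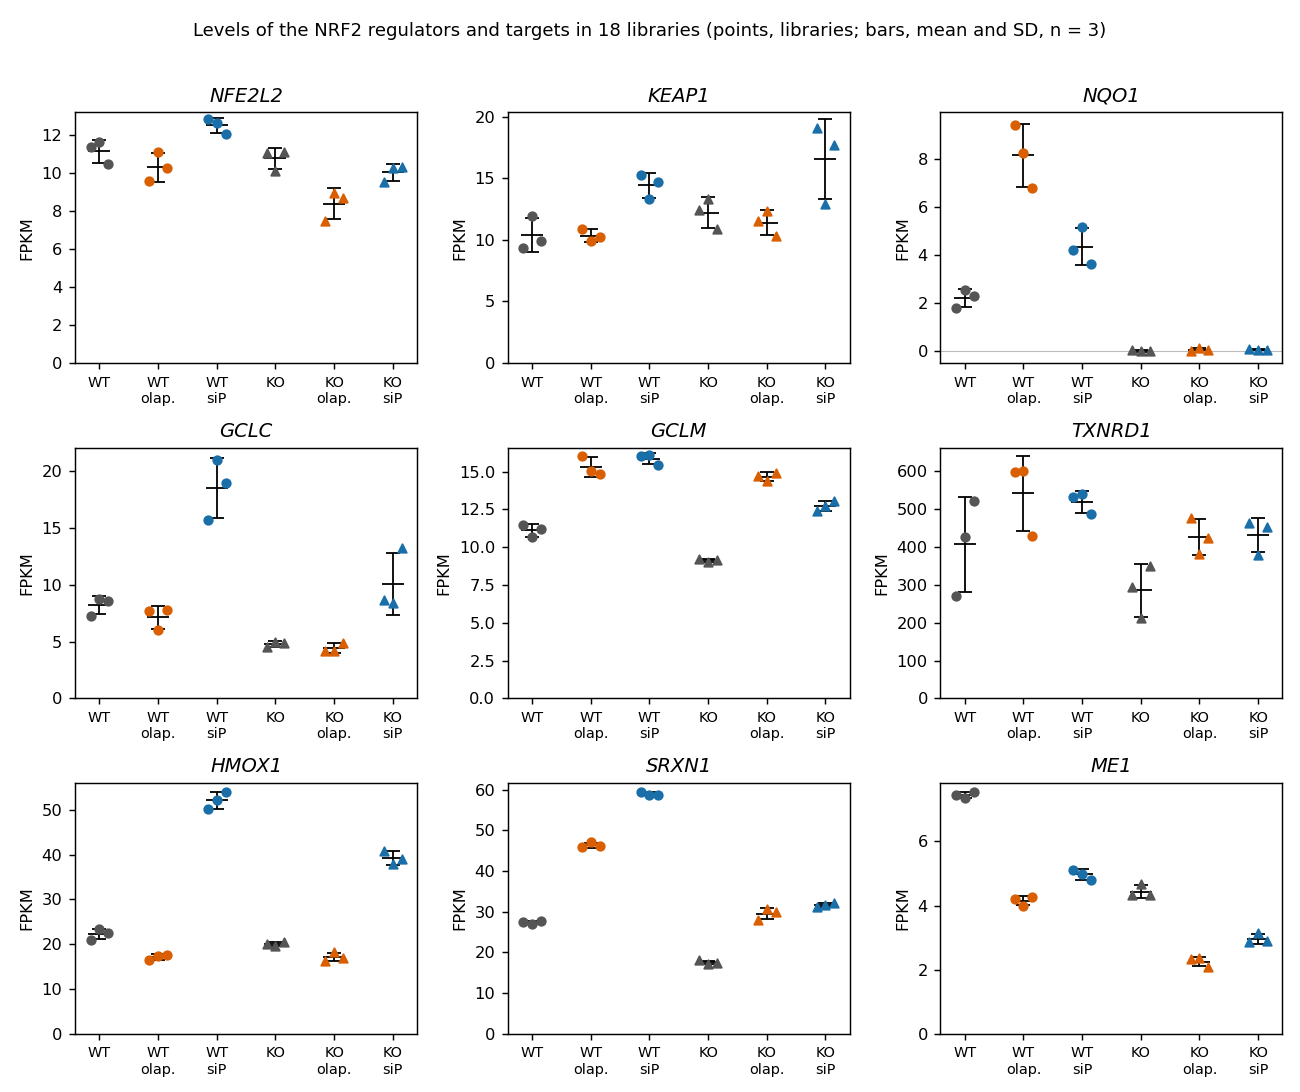
FPKM (vertical axes, starting at or just under 0) of the 9 genes in each of the 18 libraries, by group: wild type (WT, circles) and TRIM27 knockout (KO, triangles), untreated (grey), olaparib (olap., orange) and siPARP1 (siP, blue), with bars for the mean and SD of 3 libraries. SRXN1 sits lower in every knockout group than in the wild-type group of the same treatment, and the 9 knockout libraries of NQO1 lie at or near 0.

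NFE2L2 (ENSG00000116044, chr2:177227595-177392697, minus strand, GRCh38) ran from 7.48 to 12.8 FPKM across the 18 libraries. Wild-type libraries held 11.4, 11.6 and 10.5 FPKM untreated, 9.58, 11.1 and 10.3 under olaparib, and 12.8, 12.7 and 12.1 under siPARP1. Knockout libraries held 11.1, 10.1 and 11.1, then 7.48, 8.98 and 8.72, then 9.53, 10.3 and 10.3 FPKM in the same order. The knockout libraries under olaparib were the lowest of the 18, and the genotypes did not overlap under either treatment. NFE2L2 fell in knockout cells under olaparib (log2 difference -0.33, SE 0.07, adjusted p = 0.00132) and was lower in knockout than in wild-type cells under both olaparib (-0.27, adjusted p = 0.0188) and siPARP1 (-0.29, adjusted p = 0.00728). Untreated, the genotypes differed by -0.045 (95% interval -0.20 to 0.10, adjusted p = 0.716). Differences are given as log2(FPKM + 1), a scale on which changes of low genes look smaller than they are, and adjusted p-values are from limma with Benjamini-Hochberg adjustment over 15764 genes. The table of transcripts holds only 10.3 to 24.4% of the gene's FPKM for NFE2L2, depending on the group, and with these sums none of its 3 calls just given stayed below an adjusted p of 0.05. The difference under olaparib between genotypes was also lost without knockout olaparib library 1 (-0.20, adjusted p = 0.0878) or wild-type olaparib library 2 (-0.22, adjusted p = 0.0865).

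KEAP1 (ENSG00000079999, chr19:10486120-10503741, minus strand) was higher with siPARP1. Wild-type libraries held 9.32, 11.97 and 9.94 FPKM untreated, 10.9, 9.89 and 10.2 under olaparib, and 15.3, 13.3 and 14.7 under siPARP1. The knockout values were 12.5, 13.3 and 10.9, then 11.5, 12.4 and 10.3, then 19.1, 12.9 and 17.7 FPKM. The wild-type siPARP1 libraries lay above all untreated ones, while in knockout cells siPARP1 library 2 lay below untreated library 2. The rise was 0.44 in wild-type cells (SE 0.125, adjusted p = 0.00876) and 0.40 in knockout cells (adjusted p = 0.0149), where the call was lost without siPARP1 library 1 (0.29, adjusted p = 0.0785), siPARP1 library 3 (0.34, adjusted p = 0.0587) or untreated library 3 (0.32, adjusted p = 0.0675), and with annotated genes rescaled to a common total (0.26, adjusted p = 0.113). Olaparib differences of KEAP1 were -0.0020 and -0.091, with intervals from -0.27 to 0.27 in wild-type and from -0.36 to 0.18 in knockout cells. The genotypes differed by 0.21 untreated (adjusted p = 0.267). The 2 main protein-coding isoforms of KEAP1 were split unevenly within groups, with KEAP1-201 at 10.6, 1.17 and 6.82 FPKM in the wild-type olaparib libraries and KEAP1-202 at 0, 8.37 and 3.16, so isoform values are not read further.

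NQO1 (ENSG00000181019, chr16:69706996-69726951, minus strand) reduces quinones by 2 electrons at a time, which avoids reactive semiquinones. In wild-type cells it stood at 1.81, 2.55 and 2.31 FPKM untreated, at 9.38, 8.24 and 6.77 under olaparib and at 4.21, 5.18 and 3.64 under siPARP1. In knockout cells it was 0.068 FPKM in the first untreated library and listed at 0 in the other two, and it was 0.021, 0.126 and 0.061 under olaparib and 0.081, 0.058 and 0.044 under siPARP1. Every knockout library thus lay below every wild-type library, and the 3 wild-type groups did not overlap. NQO1 was lower in knockout cells in all 3 states, by -1.65 untreated (SE 0.117, adjusted p = 1.88e-07), -3.09 with olaparib (adjusted p = 3.58e-10) and -2.32 with siPARP1 (adjusted p = 4.3e-09). In wild-type cells it rose with olaparib to 366% of the untreated level (1.5, adjusted p = 1.18e-07) and with siPARP1 to 196% (0.73, adjusted p = 0.000113). The knockout differences with treatment were 0.064 (interval -0.19 to 0.32) and 0.053 (interval -0.20 to 0.30), at levels under 0.13 FPKM.

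The genes around NQO1 were compared in the same way. Within 5 Mb on either side, 115 other tested genes had log2 differences between untreated knockout and wild-type cells from -0.60 to 1.01 with a median of -0.016, and 7 fell and 4 rose, where 10.9% of all tested genes fell and 9.58% rose. The nearby NOB1 stood at 29.2 FPKM in knockout and 27.4 in wild-type cells (0.087), WWP2 at 5.30 and 4.83 (0.11) and NFAT5 at 7.96 and 7.47 (0.12). These 3 genes were chosen from those nearby after their values were seen, and none passed the test. The gene with the nearest start, ENSG00000260772, had the largest difference of the neighbours. It stood at 6.96 FPKM in knockout and 3.96 in wild-type cells (1.01, limma adjusted p = 0.588).

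**Figure D2:**
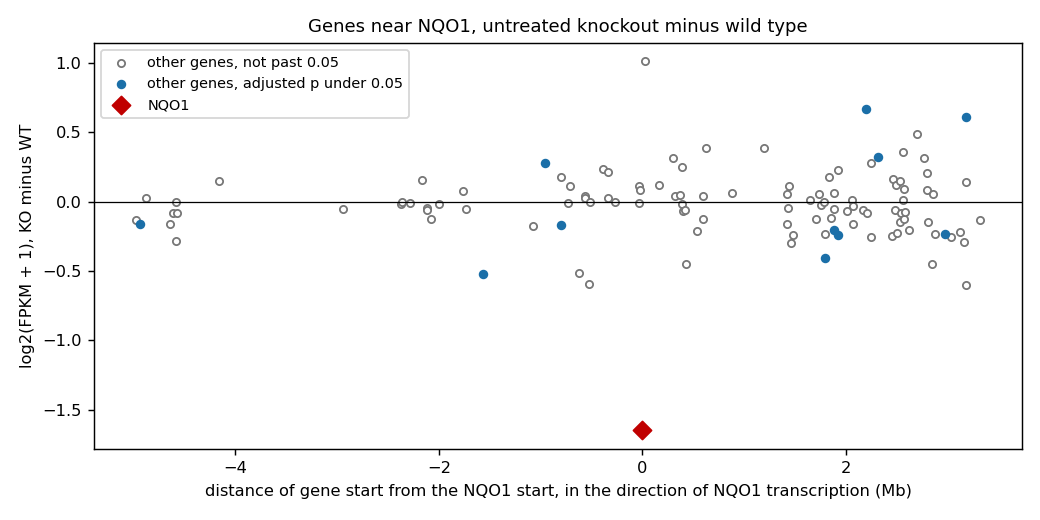
Log2(FPKM + 1) difference of untreated knockout minus wild-type cells (vertical axis) for NQO1 (red diamond) and 115 tested genes against the distance of their start from that of NQO1 in Mb along its direction of transcription, with filled points at an adjusted p under 0.05. NQO1 lies at -1.65, below the lowest neighbour at -0.60.

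SRXN1 (ENSG00000271303, chr20:646615-653370, minus strand) encodes sulfiredoxin, which restores overoxidised peroxiredoxins. The wild-type libraries held 27.5, 26.9 and 27.7 FPKM untreated, 45.8, 47.1 and 46.1 under olaparib, and 59.5, 58.8 and 58.7 under siPARP1. Knockout libraries held 18.02, 17.1 and 17.4, then 28.1, 30.6 and 29.8, then 31.2, 31.7 and 32.2 FPKM. Libraries of a group lay within a narrow range, and no 2 groups of the same genotype overlapped. SRXN1 rose with olaparib by nearly the same log2 amount in wild-type (0.74, SE 0.038, adjusted p = 1.32e-09) and knockout cells (0.72, adjusted p = 1.57e-09), and the difference between these was -0.021 (interval -0.14 to 0.094, adjusted p = 0.9). With siPARP1 it rose to 216% of the untreated level in wild-type (1.08, adjusted p = 2.1e-11) and to 181% in knockout cells (0.82, adjusted p = 2.36e-10), a smaller rise in the knockout by 0.26 (interaction -0.26, SE 0.053, adjusted p = 0.011). Against wild type, the knockout was lower by -0.61 untreated (adjusted p = 4.18e-08), -0.64 with olaparib (adjusted p = 5.44e-08) and -0.88 with siPARP1 (adjusted p = 8.58e-10). The 65 tested genes of the same 10 Mb of chromosome 20 had a median of -0.20 untreated, and SRXN1 less that median was -0.42.

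TXNRD1 (ENSG00000198431, chr12:104215779-104350305, plus strand) encodes the cytosolic selenoenzyme that reduces thioredoxin with NADPH. Wild-type libraries ranged most here, with 271, 428 and 522 FPKM untreated, 598, 601 and 428 under olaparib, and 533, 541 and 487 under siPARP1. Knockout libraries held 294, 213 and 350, then 477, 381 and 425, then 463, 379 and 453 FPKM. In knockout cells both treated groups lay above all untreated libraries, whereas in wild-type cells both overlapped them. TXNRD1 rose in knockout cells with olaparib (0.61, SE 0.22, adjusted p = 0.0351) and siPARP1 (0.62, adjusted p = 0.0273), but without knockout untreated library 2 the values were 0.41 (adjusted p = 0.162) and 0.42 (adjusted p = 0.135). The olaparib call was also lost without knockout olaparib library 1 (adjusted p = 0.111), olaparib library 3 (adjusted p = 0.072) or untreated library 1 (adjusted p = 0.0577), and the siPARP1 call without siPARP1 library 1 (adjusted p = 0.0786) or library 3 (adjusted p = 0.0728). Both calls were also lost with annotated genes rescaled to a common total (adjusted p = 0.0675 and 0.0923) and with no filter on low values (adjusted p = 0.065 and 0.052), and the siPARP1 call under median-of-ratios scaling (adjusted p = 0.059). Wild-type differences were 0.45 (interval -0.024 to 0.92) with olaparib and 0.40 (interval -0.068 to 0.87) with siPARP1, and both passed without untreated library 3 (0.65, adjusted p = 0.0317; 0.61, adjusted p = 0.0378). The untreated difference between genotypes was -0.49 (interval -0.96 to -0.018, adjusted p = 0.139), or -0.76 without wild-type untreated library 1 (adjusted p = 0.0172). The isoform estimates were uneven too: TXNRD1-212 held 7.97, 186 and 258 FPKM in the untreated wild-type libraries and TXNRD1-215 held 30.4, 170 and 197.

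GCLC (ENSG00000001084, chr6:53497341-53616970, minus strand) is the catalytic subunit of glutamate-cysteine ligase, which carries out the rate-limiting step of glutathione synthesis. Its wild-type values were 7.28, 8.76 and 8.53 FPKM untreated, 7.66, 5.98 and 7.77 under olaparib, and 15.7, 21.0 and 18.9 under siPARP1. Its knockout values were 4.48, 4.95 and 4.92, then 4.17, 4.19 and 4.90, then 8.64, 8.39 and 13.2 FPKM. Libraries under siPARP1 lay above both other groups of their genotype, untreated and olaparib libraries overlapped, and all knockout libraries lay below the wild-type libraries of the same treatment. GCLC rose with siPARP1 to 226% of the untreated level in wild-type (1.08, SE 0.147, adjusted p = 2.35e-05) and 211% in knockout cells (0.91, adjusted p = 0.000103). Its olaparib differences were -0.18 (interval -0.50 to 0.14) and -0.095 (interval -0.41 to 0.22). In the knockout it was lower by -0.67 untreated (adjusted p = 0.00497), -0.58 with olaparib (adjusted p = 0.0172) and -0.84 with siPARP1 (adjusted p = 0.000881). The olaparib call was lost when any of 4 libraries was left out, with adjusted p = 0.0607 and 0.0597 without knockout olaparib library 1 or 2, and 0.0665 and 0.0696 without wild-type olaparib library 1 or 3.

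GCLM (ENSG00000023909, chr1:93885205-93909456, minus strand), the modifier subunit of the same enzyme, rose with both treatments. Wild-type libraries held 11.5, 10.7 and 11.2 FPKM untreated, 16.03, 15.1 and 14.8 under olaparib, and 16.02, 16.1 and 15.5 under siPARP1. Knockout libraries held 9.24, 8.99 and 9.14, then 14.7, 14.4 and 14.9, then 12.4, 12.7 and 13.0 FPKM. All treated libraries lay above the untreated ones of their genotype. With olaparib GCLM rose by 0.43 in wild-type (SE 0.042, adjusted p = 1.31e-06) and 0.63 in knockout cells (adjusted p = 2.11e-08), and with siPARP1 by 0.48 (adjusted p = 3.02e-07) and 0.44 (adjusted p = 6.24e-07). The olaparib rises differed by 0.20 (interval 0.074 to 0.33), which did not pass (adjusted p = 0.0896). The knockout was lower untreated (-0.26, adjusted p = 0.000482) and under siPARP1 (-0.30, adjusted p = 0.000142), and under olaparib the difference was -0.058 (interval -0.15 to 0.032, adjusted p = 0.447). The 2 subunits thus differed under olaparib, where GCLM rose and GCLC did not pass the test; this difference between genes was not tested.

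HMOX1 (ENSG00000100292, chr22:35380361-35394214, plus strand) encodes heme oxygenase 1, which splits heme into biliverdin, iron and carbon monoxide. Wild-type libraries held 21.0, 23.3 and 22.6 FPKM untreated, 16.5, 17.4 and 17.6 under olaparib, and 50.2, 52.3 and 54.0 under siPARP1. Knockout libraries held 20.2, 19.7 and 20.5, then 16.3, 18.2 and 17.0, then 40.9, 37.9 and 38.9 FPKM. HMOX1 thus moved in opposite directions with the 2 treatments, with no overlap between the 3 groups of either genotype. It fell with olaparib by 0.36 on the log2 scale in wild-type (adjusted p = 6.05e-05) and by 0.22 in knockout cells (adjusted p = 0.00346). With siPARP1 it rose to 234% (1.19, SE 0.052, adjusted p = 2.3e-10) and 195% of the untreated level (0.93, adjusted p = 2.03e-09). The knockout was lower under siPARP1 (-0.40, adjusted p = 7.63e-05), and this difference was -0.63 after subtracting the median of 0.23 of the 116 tested genes in the same 10 Mb of chromosome 22. Untreated it was -0.14 (adjusted p = 0.0707) with no overlap between the libraries, and it passed without wild-type untreated library 1 (-0.18, adjusted p = 0.0387). Under olaparib, knockout and wild-type cells stood at 17.2 ± 0.991 and 17.2 ± 0.599 FPKM (SD, n = 3) (difference 0, interval -0.11 to 0.11). The siPARP1 rise was smaller in the knockout by 0.26 without passing (interaction -0.26, adjusted p = 0.0606), and passed under median-of-ratios scaling (adjusted p = 0.0431), with annotated genes rescaled (adjusted p = 0.0479) and from the transcript sums (adjusted p = 0.00309). The transcript sums held 92.6% of the HMOX1 gene value in untreated and 99.4% in siPARP1 wild-type cells. In knockout cells they held 99.2% untreated and 96% under siPARP1, so the interaction from these sums also carries this uneven share.

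ME1 (ENSG00000065833, chr6:83210389-83431071, minus strand) encodes the cytosolic malic enzyme, which makes NADPH while turning malate into pyruvate, and it fell with both treatments in both genotypes. Wild-type libraries held 7.45, 7.36 and 7.55 FPKM untreated, 4.19, 4.00 and 4.27 under olaparib, and 5.12, 4.98 and 4.80 under siPARP1. Knockout libraries held 4.32, 4.66 and 4.32, then 2.32, 2.36 and 2.08, then 2.85, 3.14 and 2.90 FPKM. Untreated libraries were the highest in each genotype and olaparib libraries the lowest, with no overlap. ME1 fell with olaparib to 55.8% of the untreated level in wild-type (-0.71, SE 0.051, adjusted p = 4.18e-08) and 50.9% in knockout cells (-0.74, adjusted p = 2.57e-08). It fell with siPARP1 to 66.7% (-0.50, adjusted p = 1.15e-06) and 66.9% (-0.45, adjusted p = 2.74e-06). The knockout was lower by -0.64 untreated (adjusted p = 5.56e-07), -0.67 with olaparib (adjusted p = 6.42e-07) and -0.59 with siPARP1 (adjusted p = 1.38e-06). The treatment changes differed between genotypes by -0.027 (interval -0.18 to 0.13) and 0.048 (interval -0.11 to 0.20).

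Set side by side, several of these RNAs were lower in TRIM27 knockout cells and none was higher past the test. Untreated, 5 of the 9 genes fell (NQO1, SRXN1, GCLC, ME1 and GCLM) and 0 rose, where 10.9% of all 15764 tested genes fell and 9.58% rose. Under olaparib the 5 that fell were NQO1, ME1, SRXN1, GCLC and NFE2L2, where 7.16% of tested genes fell and 5.68% rose. Under siPARP1 NQO1, SRXN1, GCLC, HMOX1, GCLM, ME1 and NFE2L2 fell, 7 in all, where 11.2% of tested genes fell and 11.8% rose. The median log2 difference of the 9 genes was -0.49, -0.33 and -0.40 in these 3 states, beside -0.009, -0.012 and -0.001 over all tested genes. NQO1, SRXN1, GCLC and ME1 were called in all 3 states, and KEAP1 and TXNRD1 in none. NQO1 passed the filter only through wild-type libraries, so the filter favoured its call in each state and it adds no support to these counts. In bulk samples like these, fewer cells of a kind and less RNA per cell cannot be told apart. The labels do not state that replicate libraries were separate cultures, so a p-value here covers the spread between libraries, part or all of which may be technical.

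**Figure D3:**
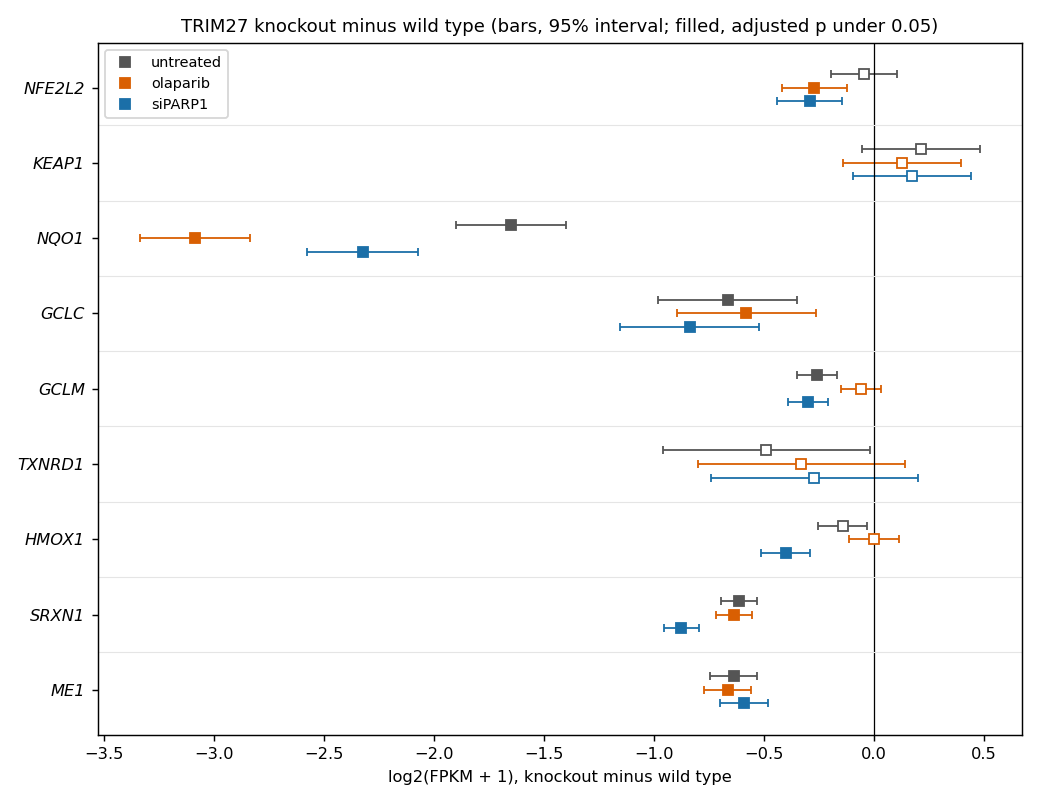
Log2(FPKM + 1) difference of TRIM27 knockout minus wild-type cells (horizontal axis) for the 9 genes, untreated (grey), under olaparib (orange) and under siPARP1 (blue), with bars for the 95% interval and filled squares at an adjusted p under 0.05. The SRXN1 and ME1 values lie between -0.59 and -0.88 in all 3 states, and the KEAP1 intervals all include 0.

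With each treatment some of the 9 genes rose and at least 1 fell. The olaparib counts lay near the shares over all tested genes and do not set the 9 apart. With olaparib in wild-type cells NQO1, SRXN1 and GCLM rose and HMOX1 and ME1 fell, 3 and 2 of the 9, where 24.9% of tested genes rose and 20.4% fell. In knockout cells SRXN1, GCLM and TXNRD1 rose and NFE2L2, HMOX1 and ME1 fell, 3 and 3, where 25.2% rose and 22% fell. With siPARP1 in wild-type cells 6 of the 9 rose (HMOX1, GCLC, SRXN1, NQO1, GCLM and KEAP1) and 1 fell (ME1), where 29.5% rose and 22.3% fell. The 6 that rose in knockout cells were HMOX1, GCLC, SRXN1, TXNRD1, GCLM and KEAP1, and ME1 again fell, where 31.9% rose and 22.8% fell. The medians of the 9 were -0.0020 and -0.091 with olaparib and 0.48 and 0.44 with siPARP1, beside 0.03, 0.033, 0.072 and 0.07 over all tested genes. Of all siPARP1 calls, 57% in wild-type and 58.4% in knockout cells were rises. This share was 47% and 48.2% under median-of-ratios scaling and 43.3% and 44% with annotated genes rescaled to a common total, which moved the median of all genes in knockout cells by -0.11. No called gene of the 9 changed sign under either scaling, but the count with siPARP1 in knockout cells did change, from 6 higher and 1 lower to 5 and 2 under median-of-ratios scaling and to 4 and 2 with annotated genes rescaled. TXNRD1 lost its call under both, KEAP1 under the second, and NFE2L2 fell under both (-0.19, adjusted p = 0.0372, and -0.25, adjusted p = 0.0142). Both treatments are compared with the same untreated libraries, which also enter the untreated comparison of the genotypes.

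**Figure D4:**
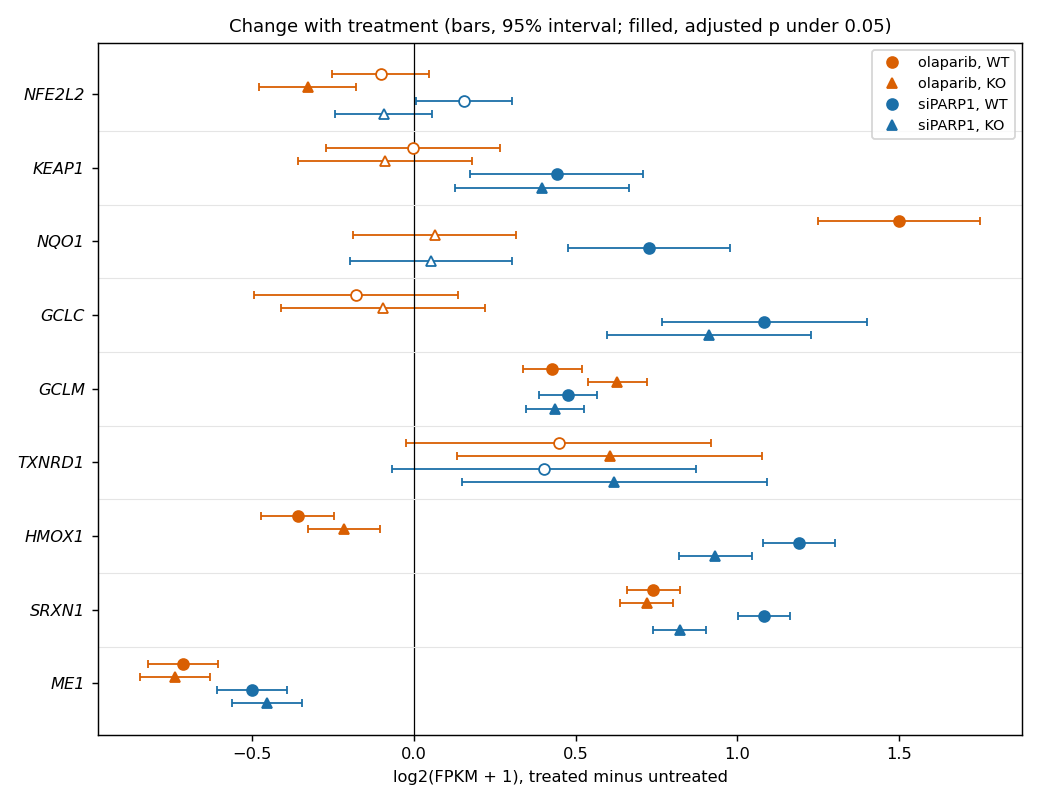
Log2(FPKM + 1) difference of treated minus untreated cells (horizontal axis) for the 9 genes with olaparib (orange) and siPARP1 (blue) in wild-type (circles) and knockout cells (triangles), with bars for the 95% interval and filled symbols at an adjusted p under 0.05. HMOX1 lies below 0 with olaparib and above 0.9 with siPARP1 in both genotypes, while ME1 lies below 0 in all 4.

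The test of whether a treatment acted differently in the 2 genotypes passed for 1 of the 9 genes with olaparib, where 3.06% of tested genes passed, and for 2 with siPARP1, where 5.26% passed. For NQO1 the interaction was -1.44 with olaparib (SE 0.165, adjusted p = 0.000268) and -0.67 with siPARP1 (adjusted p = 0.0301). The knockout means were 0.0227, 0.0694 and 0.0609 FPKM untreated, under olaparib and under siPARP1, and adding 1 before taking logs holds any difference at that level near 0. NQO1 passed neither treatment's test in knockout cells, where its treated libraries overlapped the untreated ones, and the interaction values do not show a smaller response there. Neither NQO1 call was kept with a pseudocount of 0.1 in place of 1 (adjusted p = 0.0649 and 0.514), and the siPARP1 call depended on single libraries: leaving out any one of the 12 except wild-type untreated library 2 or wild-type siPARP1 library 3 gave an adjusted p between 0.0505 and 0.0713. SRXN1 with siPARP1 was the other gene.

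Olaparib for 24 h and siPARP1 for 48 h were set against each other directly, with time and transfection differing as well as the agent. In wild-type cells HMOX1 was lower under olaparib at 32.9% of the siPARP1 level (-1.55, adjusted p = 9.98e-12) and GCLC at 38.5% (-1.26, adjusted p = 5.17e-06). KEAP1, SRXN1, NFE2L2 and ME1 were also lower, by -0.44 to -0.21, and NQO1 alone of the 9 was higher (0.77, adjusted p = 6.59e-05), giving 1 higher and 6 lower where 23.4% of tested genes were higher and 28.3% lower. Among the knockout libraries HMOX1 (-1.15, adjusted p = 2.14e-10), GCLC (-1.01, adjusted p = 4.58e-05), KEAP1, ME1, NFE2L2 and SRXN1 were lower, 6 in all, and GCLM was higher (0.19, adjusted p = 0.00142), where 22.4% of tested genes were higher and 29.7% lower. The SRXN1 difference in knockout cells (-0.10, adjusted p = 0.0358) was not kept with a replicate block (adjusted p = 0.0502), under median-of-ratios scaling (-0.035, adjusted p = 0.502) or with annotated genes rescaled (-0.033, adjusted p = 0.527). Left out singly, knockout olaparib library 1 (-0.067, adjusted p = 0.171), olaparib library 3 (adjusted p = 0.0525), siPARP1 library 2 (adjusted p = 0.0693) and siPARP1 library 3 (adjusted p = 0.103) each ended it too. The NFE2L2 difference in knockout cells (-0.24, adjusted p = 0.0108) was not kept without knockout olaparib library 1 (-0.16, adjusted p = 0.0615). Nor was it kept under median-of-ratios scaling (adjusted p = 0.0535) or with annotated genes rescaled (adjusted p = 0.0636).

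The surrounding pathway was followed in 8 lists of 121 genes without the 9, of which 105 passed the filter. Over all tested genes, 9.58% rose and 10.9% fell in the untreated knockout, 24.9% and 20.4% with olaparib in wild-type cells, 25.2% and 22% with olaparib in knockout cells, 29.5% and 22.3% with siPARP1 in wild-type cells and 31.9% and 22.8% with siPARP1 in knockout cells, and the counts below are to be set against these shares. Among the NRF2 regulators, 17 of 18 were tested. Untreated, 0 were higher and 4 lower in the knockout, with olaparib 7 rose and 3 fell in wild-type and 8 and 3 in knockout cells, and with siPARP1 11 rose and 2 fell in wild-type and 8 and 1 in knockout cells. In wild-type cells this was 41.2% up and 17.6% down with olaparib, against 24.9% and 20.4% of all genes, and 64.7% up and 11.8% down with siPARP1, against 29.5% and 22.3%. The list holds partners of NRF2 such as MAFG and parts of its degradation such as CUL3, so these shares give no direction for NRF2. SQSTM1, which encodes p62, the autophagy adaptor that can bind KEAP1, stood at 99.7, 207 and 403 FPKM in wild-type cells untreated, under olaparib and under siPARP1, and at 44.7, 97.7 and 184 in knockout cells. Its siPARP1 rise was 2.00 (adjusted p = 2.18e-12) and 2.02 (adjusted p = 1.34e-12), and it was lower in the untreated knockout (-1.14, adjusted p = 5.58e-09). MAFG, a small MAF partner of NRF2, rose with siPARP1 from 5.04 to 19.7 FPKM in wild-type (1.73, adjusted p = 1.23e-05) and from 5.45 to 13.0 in knockout cells (1.13, adjusted p = 0.000552). The other MAF genes of the list did not share this pattern. From untreated to siPARP1, MAFF went from 10.5 to 6.02 FPKM in wild-type and from 7.63 to 8.88 in knockout cells. MAFK went from 5.77 to 7.29 and from 3.79 to 4.65 FPKM, with overlapping libraries in both genotypes. BACH1, which represses HMOX1, stood at 21.8 FPKM in untreated knockout cells and fell with olaparib to 15.3 (-0.49, adjusted p = 2.05e-05), and in wild-type cells it fell from 19.5 to 17.1 FPKM (-0.19, adjusted p = 0.0271) with overlapping libraries. With siPARP1 BACH1 rose, to 23.4 FPKM in wild-type (0.25, adjusted p = 0.00424) and 27.9 in knockout cells (0.34, adjusted p = 0.000369), with no overlap with the untreated libraries. CUL3, the scaffold of the KEAP1 ligase, fell with siPARP1 in wild-type cells to 81.9% of its level (-0.27, adjusted p = 0.0146). NFE2L3 was lower in the untreated knockout (-0.28). It also fell with olaparib (-0.49 in wild-type, -0.31 in knockout cells) and with siPARP1 (-0.17 and -0.091), each at a limma adjusted p under 0.05.

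The thioredoxin and peroxiredoxin list had 15 of 16 genes tested. Knockout of TRIM27 without treatment left 3 higher and 3 lower, with olaparib 5 rose and 6 fell in wild-type and 6 and 6 in knockout cells, and with siPARP1 8 rose and 4 fell in wild-type and 9 and 3 in knockout cells. The wild-type shares were 33.3% up and 40% down with olaparib and 53.3% up and 26.7% down with siPARP1. TXN, the thioredoxin that TXNRD1 reduces, stood at 280, 486 and 683 FPKM in wild-type cells and at 189, 313 and 292 in knockout cells. It rose with siPARP1 by 1.28 (adjusted p = 3.98e-10) in wild-type and 0.62 (adjusted p = 6.28e-07) in knockout cells, and was lower in the untreated knockout (-0.56, adjusted p = 1.12e-05). TXNIP, an inhibitor of thioredoxin, was higher in untreated knockout cells, at 89.3 against 41.5 FPKM (1.09, adjusted p = 5.81e-10). It fell with both treatments, and in knockout cells it reached 21.5 under olaparib (-2.01, adjusted p = 1.57e-13) and 24.9 FPKM under siPARP1 (-1.80, adjusted p = 4.6e-13).

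Of the genes of glutathione synthesis, import and reduction, 16 of 19 were tested. Without treatment, 3 rose and 3 fell in the knockout, with olaparib 3 rose and 4 fell in wild-type and 3 and 5 in knockout cells, and with siPARP1 3 rose and 1 fell in wild-type and 5 and 5 in knockout cells. In wild-type cells 18.8% rose and 25% fell with olaparib, and 18.8% rose and 6.25% fell with siPARP1. SLC7A11, the cystine importer, fell with olaparib from 22.01 to 12.1 FPKM in wild-type (-0.81, adjusted p = 3.96e-09) and from 22.5 to 8.93 in knockout cells (-1.24, adjusted p = 3.25e-11). GSR, which reduces oxidised glutathione, rose with siPARP1 from 15.9 to 26.6 FPKM in wild-type (0.72, adjusted p = 3.48e-08) and from 12.6 to 20.6 in knockout cells (0.67, adjusted p = 6.25e-08). CHAC1, which degrades glutathione, was higher in the untreated knockout at 15.5 against 4.69 FPKM (1.58, adjusted p = 1.38e-05). In knockout cells it fell with olaparib to 0.919 (-3.10, adjusted p = 2.99e-09) and with siPARP1 to 5.39 FPKM (-1.37, adjusted p = 1.04e-05). In wild-type cells it was also lower under olaparib, at 0.710 FPKM, with no overlap with the untreated libraries.

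For glutathione conjugation and export, 15 of 17 genes were tested. In the untreated knockout 1 rose and 3 fell, with olaparib 3 rose and 8 fell in wild-type and 3 and 6 in knockout cells, and with siPARP1 3 rose and 5 fell in both genotypes. For wild-type cells this was 20% up and 53.3% down with olaparib and 20% up and 33.3% down with siPARP1. ABCC2, an export pump for glutathione conjugates, stood at 23.2, 51.0 and 44.1 FPKM in wild-type cells untreated, under olaparib and under siPARP1, and at 9.50, 16.1 and 12.4 in knockout cells. It was lower in the untreated knockout (-1.20, adjusted p = 2.91e-10) and rose with olaparib by 1.11 in wild-type cells (adjusted p = 1.18e-10) and 0.70 in knockout cells (adjusted p = 1.45e-08). GSTO1, a glutathione transferase, rose with siPARP1 to 238% of the untreated level in wild-type (1.24, adjusted p = 2.1e-11) and 225% in knockout cells (1.16, adjusted p = 2.62e-11). MGST1, a membrane-bound glutathione transferase, fell with olaparib to 46.8% (-1.07, adjusted p = 1.24e-05) and 40.7% (-1.28, adjusted p = 2.04e-06).

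All 14 NADPH supply genes were tested. Of these 3 rose and 2 fell in the untreated knockout, with olaparib 3 rose and 4 fell in wild-type and 2 and 5 in knockout cells, and with siPARP1 2 rose and 7 fell in both genotypes. The wild-type shares were 21.4% up and 28.6% down with olaparib and 14.3% up and 50% down with siPARP1. IDH2, the mitochondrial NADP-dependent isocitrate dehydrogenase, fell in wild-type cells with olaparib to 38.1% of the untreated level (-1.18, adjusted p = 3.11e-08) and with siPARP1 to 51.6% (-0.83, adjusted p = 8.48e-07). TKT, the transketolase of the pentose phosphate pathway, rose with olaparib from 194 to 332 FPKM in wild-type cells (0.77, adjusted p = 8.14e-06) and from 276 to 397 in knockout cells (0.52, adjusted p = 0.000277).

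Quinone, carbonyl and drug detoxification had 11 of 19 genes tested, with the AKR1B10, AKR1C1, AKR1C2 and AKR1C3 genes below the filter. In the untreated knockout 2 rose and 1 fell, with olaparib 3 rose and 0 fell in wild-type and 2 and 3 in knockout cells, and with siPARP1 2 rose and 6 fell in wild-type and 2 and 8 in knockout cells. In wild-type cells 27.3% rose and 0% fell with olaparib, and 18.2% rose and 54.5% fell with siPARP1. OSGIN1 rose with siPARP1 from 3.19 to 12.8 FPKM in wild-type (1.72, adjusted p = 1.72e-09) and from 1.37 to 6.45 in knockout cells (1.65, adjusted p = 2.06e-09). CBR1, a carbonyl reductase, rose with olaparib in wild-type cells (0.40, adjusted p = 0.000159) and fell with siPARP1 (-0.76, adjusted p = 2.47e-07).

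All 12 heme and iron genes were tested. Of them 0 rose and 3 fell in the untreated knockout, with olaparib 3 rose and 3 fell in both genotypes, and with siPARP1 5 rose and 3 fell in wild-type and 6 and 2 in knockout cells. The wild-type shares were 25% up and 25% down with olaparib and 41.7% up and 25% down with siPARP1. FTL, the ferritin light chain, stood at 1623, 2404 and 3040 FPKM in wild-type cells and at 943, 1489 and 1617 in knockout cells, and was lower in the untreated knockout (-0.78, adjusted p = 1.1e-08). FTH1, the ferritin heavy chain, rose with siPARP1 in wild-type (0.78, adjusted p = 0.000107) and knockout cells (0.73, adjusted p = 0.000163). Of the genes for superoxide and peroxide removal, 5 of 6 were tested. In the untreated knockout 2 rose and 0 fell, with olaparib 1 rose and 1 fell in wild-type and 2 and 0 in knockout cells, and with siPARP1 2 rose and 0 fell in both genotypes, 40% of the 5 in wild-type cells. SOD2, the mitochondrial superoxide dismutase, rose with siPARP1 from 9.46 to 25.8 FPKM in wild-type (1.37, adjusted p = 1.82e-05) and from 7.66 to 16.8 in knockout cells (1.05, adjusted p = 0.000189). Over all 8 lists 14 rose and 19 fell in the untreated knockout, 13.3% and 18.1% of the 105 tested, against 9.58% and 10.9% of all genes. With olaparib in wild-type cells 28 rose and 29 fell, 26.7% and 27.6% against 24.9% and 20.4%, and in knockout cells 29 and 31, 27.6% and 29.5% against 25.2% and 22%. With siPARP1 in wild-type cells 36 rose and 28 fell, 34.3% and 26.7% against 29.5% and 22.3%, and in knockout cells 37 and 31, 35.2% and 29.5% against 31.9% and 22.8%. Their median was 0.028 with olaparib and 0.091 with siPARP1 in wild-type cells, against 0.03 and 0.072 over all genes. FTL, FTH1 and TXN have processed pseudogenes with which reads may be shared, so their values are less certain.

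**Figure D5:**
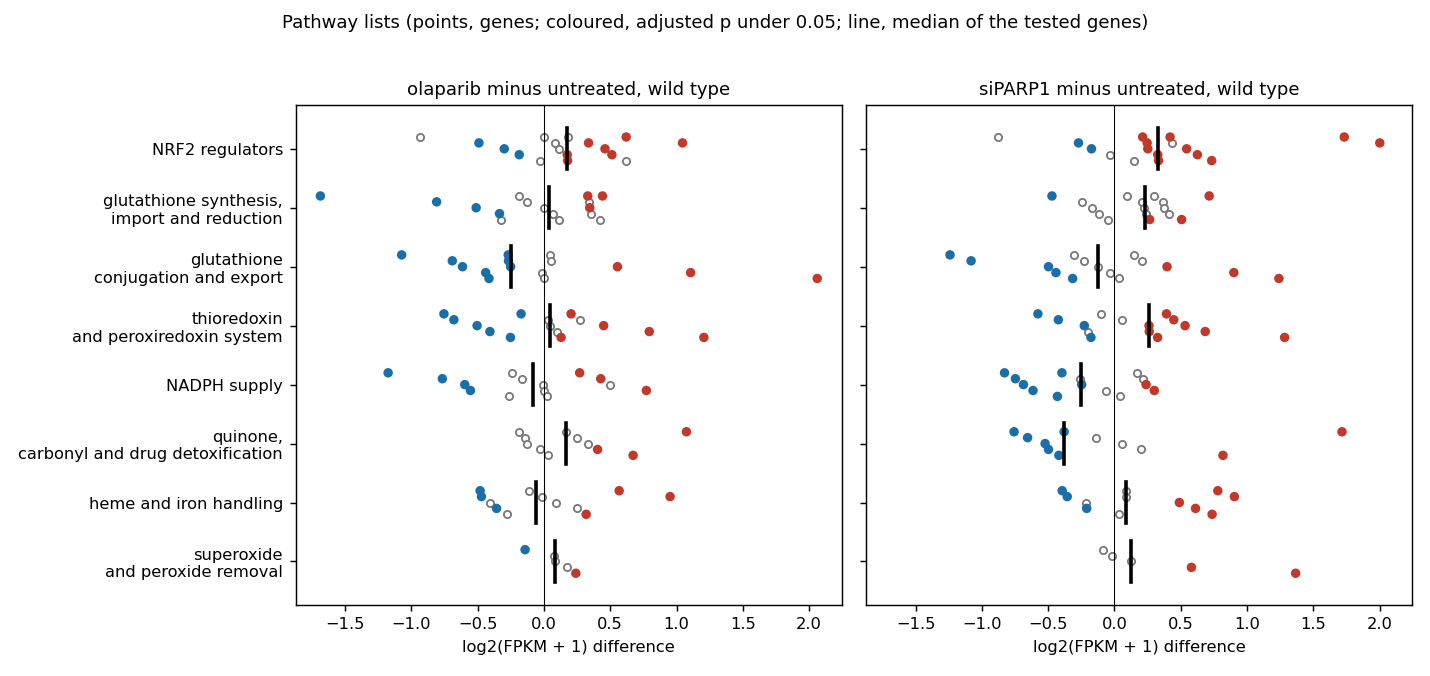
Log2(FPKM + 1) difference of treated minus untreated wild-type cells (horizontal axes) with olaparib (left) and siPARP1 (right) for the tested genes of 8 pathway lists, with red (higher) and blue (lower) points at an adjusted p under 0.05 and a black line at the median of each list. With siPARP1 the list medians run from -0.38 (quinone, carbonyl and drug detoxification, 6 blue and 2 red points) and -0.25 (NADPH supply, 7 blue and 2 red) to 0.33 (NRF2 regulators, 11 red and 2 blue), beside 0.072 over all tested genes; no list was tested as a whole.

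Genes with the most similar pattern were ranked by the Pearson correlation of log2(FPKM + 1) over the 18 libraries among the 8833 named genes that averaged at least 5 FPKM; these libraries share 6 groups, so the values describe likeness of profile and carry no p-value. SRXN1 was most like FTL (0.99), TXN (0.98) and the ferritin pseudogene FTLP3 (0.98), whose reads may come from FTL. NQO1 was most like ARRDC3 (0.96), ABCC2 (0.96) and LNCAROD (0.94), and HMOX1 like TAF7, RNF169 and ATXN7L3B (0.99, 0.99 and 0.98). GCLC was most like SEC24A (0.97) and ME1 like ADIPOR2 (0.96). NFE2L2 reached 0.91 with TULP3, KEAP1 0.91 with COL4A6 and TXNRD1 0.88 with SNRNP35. Among the 9 genes themselves the closest pairs were GCLM with SRXN1 (0.89) and GCLC with HMOX1 (0.87), and the correlation of the 2 ligase subunits GCLC and GCLM was 0.43. GCLM with ME1 was the lowest pair, at -0.32.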

How the data were processed

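RNA was sequenced from MDA-MB-231 cells in 18 libraries after oligo(dT) enrichment, per the labels' protocols. The authors deposited FPKM values per gene and per transcript; GRCh38, StringTie 2.2.1, featureCounts 2.0.3, DESeq2 1.38.3, HISAT2 2.2.1 and fastp 0.23.2 are listed in the submitters' processing notes. The sources used here do not say which tool made the FPKM, on which annotation or with which strand setting. Read counts were not used here, so absolute depth is unknown; steps between low values gave relative depths from 0.749 to 1.24, with the first untreated wild-type library as 1. Unnamed loci, 970 in number, held 43.4 to 49.8% of the summed FPKM. Symbols were found for 61853 of 61860 Ensembl identifiers, 96 of them through GENCODE 29, which also gave positions.

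A filter of 1 FPKM or more in 3 or more libraries kept 15764 genes. In R 4.3.3, limma 3.58.1 fitted log2(FPKM + 1) as 6 group means with a mean-dependent prior variance, in 11 comparisons. Benjamini-Hochberg adjustment ran over all these genes, and a gene was called at an adjusted p under 0.05. The script was tested on simulated data. Promoters came from RefSeq on GRCh38.p14.

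The 9 genes and the lists were chosen with earlier results of these data known. The pathway lists were NRF2 regulators; glutathione synthesis, import and reduction; glutathione conjugation and export; thioredoxin and peroxiredoxin; NADPH supply; quinone, carbonyl and drug detoxification; heme and iron; and superoxide and peroxide removal. The rule for naming their genes took at most the 2 largest rises and 2 largest falls per list and comparison, with 5 FPKM or more on average in whichever group was higher and no overlap of libraries. MAFF and MAFK are given beside MAFG outside this rule. The genes most like GCLM are not reported here. Alternatives were a pseudocount of 0.1, no filter, median-of-ratios scaling, annotated genes rescaled to a common total, transcript sums, a fit of the compared groups only, a replicate block, subtraction of the median of the 10 Mb around a gene, and leaving out each library in turn.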

Additional observations from a re-analysis of the deposited data

Results flagged for a closer look

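For 3 results the change with a treatment differed between the genotypes by limma's test of the interaction. NQO1 with olaparib gave -1.44 (log2, knockout minus wild type), with a rise of 1.5 in wild-type cells and a difference of 0.064 in knockout cells, where the gene was listed at or near 0 in every library and the pseudocount of 1 holds any difference near 0. NQO1 with siPARP1 gave -0.67, from a rise of 0.73 in wild-type cells and a difference of 0.053 in knockout cells, at the same floor. Neither NQO1 value shows a smaller response in the knockout. SRXN1 with siPARP1 gave -0.26, from rises of 1.08 and 0.82, and this call held under every alternative run for it. Groups of 3 libraries are too small for a test of single outlying libraries.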

How the results depend on the processing

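Of 99 results for the 9 genes, 59 were called, and 47 of these kept their call in every alternative that gave a p-value. Over 1422 alternative values, none reversed a call, 56 lost one and 11 gained one. Subtracting the 10 Mb median gave no p-value, so it could not end a call. It moved 6 called differences between genotypes: SRXN1 in all 3 states, ME1 untreated and under olaparib, and HMOX1 under siPARP1. With a pseudocount of 0.1 the count of genes whose olaparib change differed between genotypes went from 1 to 0. The count for siPARP1 went from 2 to 1 with that pseudocount, with no filter and with a fit of the compared groups only, and ran from 1 to 2 with a library left out. The count of genes lower in the knockout under olaparib ran from 3 to 5 with a library left out, and was 3 without knockout olaparib library 1. Other counts with a library left out ran from 5 to 7 (knockout untreated, siPARP1 in knockout cells, olaparib against siPARP1 in knockout cells), 7 to 8 (knockout under siPARP1, siPARP1 in wild-type cells) and 5 to 6 (olaparib in either genotype). The labels do not say whether replicate numbers pair the samples. The deviations of same-numbered libraries correlated at -0.063 to 0.074 over 27 pairs, so no shared effect of the number was seen. The replicate block ended 1 call (SRXN1, olaparib against siPARP1 in knockout cells, -0.10, adjusted p = 0.0502) and no other. NFE2L2 in knockout cells with siPARP1 (-0.093) passed when annotated genes were rescaled (-0.25, adjusted p = 0.0142) or under median-of-ratios scaling (-0.19, adjusted p = 0.0372), and from transcript sums in wild-type cells it rose by 0.99 (adjusted p = 0.0377). Those sums held 10.3% of the NFE2L2 gene value in untreated and 24.4% in siPARP1 wild-type cells. The rise of 0.99 thus also carries this uneven share. KEAP1 passed for the knockout against wild type under siPARP1 without knockout siPARP1 library 2 (0.33, adjusted p = 0.0453). A fit of the compared groups only ended the calls of NFE2L2 for knockout against wild type under olaparib (adjusted p = 0.122), KEAP1 for siPARP1 in knockout cells (adjusted p = 0.0791), and NFE2L2 and SRXN1 for olaparib against siPARP1 in knockout cells (adjusted p = 0.0535 and 0.149). The cause of these changes was not tested.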
